A study of Homo sapiens with 6 samples.

Results

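The human genome encodes 6 actin isoforms, and all 6 genes were followed here: ACTA2 (smooth muscle alpha-actin), ACTG2 (smooth muscle gamma-actin), ACTC1 (cardiac alpha-actin), ACTA1 (skeletal alpha-actin), and the cytoplasmic actins ACTB (beta) and ACTG1 (gamma). They were chosen by gene symbol, not by any measured value, and make up 6 of the 60623 gene IDs in the mRNA table. The cells were MRC5, an established human lung fibroblast line of wild-type genotype, harvested at 48 h after luteolin + TGF-β1, TGF-β1, or control treatment with DMSO, the usual drug solvent. TGF-β1 is the cytokine that turns fibroblasts into contractile myofibroblasts, luteolin is a plant flavonoid, and the labels give no dose for either. Each treatment had 1 mRNA library, so no difference below has a replicate check, and no test between treatments was possible. Intervals are exact 95% intervals for counting error only.

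Actin monomers polymerise into the filaments that carry tension in the cell, and the isoforms differ mainly at their N-terminal ends. The cytoplasmic pair is made in nearly every cell type, whereas the 4 muscle isoforms mark contractile cells. ACTA2 is the customary marker of the myofibroblast, the cell that closes wounds and stiffens fibrotic lung. Muscle actin genes are known targets of serum response factor (SRF), which binds the CArG box (CC, then 6 A or T bases, then GG) and is activated by myocardin-related factors when free actin monomer runs low.

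The promoters of the actin genes are shown because the muscle isoforms moved differently between the treatments and the CArG box is their best-known shared element. They are the 250 bases before RefSeq transcript starts (RefSeq, GRCh38.p14), written 5′ to 3′ on the gene's strand, with capitals marking each exact CArG box and each CArG box that has 1 inner base changed to C or G. The window of ACTA2 before its inner start lies at chr10:88952774-88953023 on the minus strand, that of ACTG2 at chr2:73892758-73893007 on the plus strand, that of ACTC1 at chr15:34795550-34795799 on the minus strand, and that of ACTG1 at chr17:81512800-81513049 on the minus strand.
ACTA2 inner start: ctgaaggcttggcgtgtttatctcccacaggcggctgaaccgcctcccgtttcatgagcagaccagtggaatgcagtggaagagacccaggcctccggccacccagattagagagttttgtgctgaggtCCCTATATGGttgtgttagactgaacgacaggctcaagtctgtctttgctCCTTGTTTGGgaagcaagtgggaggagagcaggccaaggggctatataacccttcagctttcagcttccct
ACTG2: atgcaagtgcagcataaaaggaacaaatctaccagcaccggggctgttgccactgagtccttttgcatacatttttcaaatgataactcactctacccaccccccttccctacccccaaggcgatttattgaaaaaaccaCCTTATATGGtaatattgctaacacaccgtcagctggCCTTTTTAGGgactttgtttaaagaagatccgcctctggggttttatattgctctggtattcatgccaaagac
ACTC1: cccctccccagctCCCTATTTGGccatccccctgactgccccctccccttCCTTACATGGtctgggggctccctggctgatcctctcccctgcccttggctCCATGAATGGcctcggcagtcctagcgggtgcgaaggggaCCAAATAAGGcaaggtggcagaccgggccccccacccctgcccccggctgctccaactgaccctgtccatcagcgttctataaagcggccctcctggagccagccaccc
ACTG1: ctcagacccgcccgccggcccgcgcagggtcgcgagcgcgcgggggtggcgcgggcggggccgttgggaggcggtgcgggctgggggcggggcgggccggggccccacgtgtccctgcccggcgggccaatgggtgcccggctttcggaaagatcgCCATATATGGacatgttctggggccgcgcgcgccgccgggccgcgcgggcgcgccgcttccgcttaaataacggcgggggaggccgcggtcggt
An exact CArG box occurred in 1.16% of the 35116 windows of this length in the same table (407 windows), and the form with 1 changed inner base in 5.96%. The windows of ACTG2, ACTC1 and ACTG1 held 2, 1 and 1 exact boxes. The ACTA2 window held no exact box and 2 of the changed form, beginning 121 and 71 bases before the start. The ACTA1 window, at chr1:229434095-229434344 on the minus strand, held 1 exact box and 2 changed ones. TATAAA, searched on both strands, was matched in the windows of ACTG2, ACTC1 and ACTA1, and in 10.7% of all windows. CATTCC, the core of the MCAT element, was matched in those of ACTA2 (1 match) and ACTA1 (2 matches), and in 11.9% of all windows. CAGAC, a form of the SMAD-binding element, was matched in those of ACTA2, ACTC1 and ACTG1, and in 38.0% of all windows, also on both strands. The table holds a second ACTA2 window before an outer start and 2 more ACTC1 windows before inner starts, and none of these 3 contains either CArG form. ACTB was not among the genes with a window. Letters alone do not show that a factor binds, and the absence of a match says only that these letters are not in the window.

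**Figure D1:**
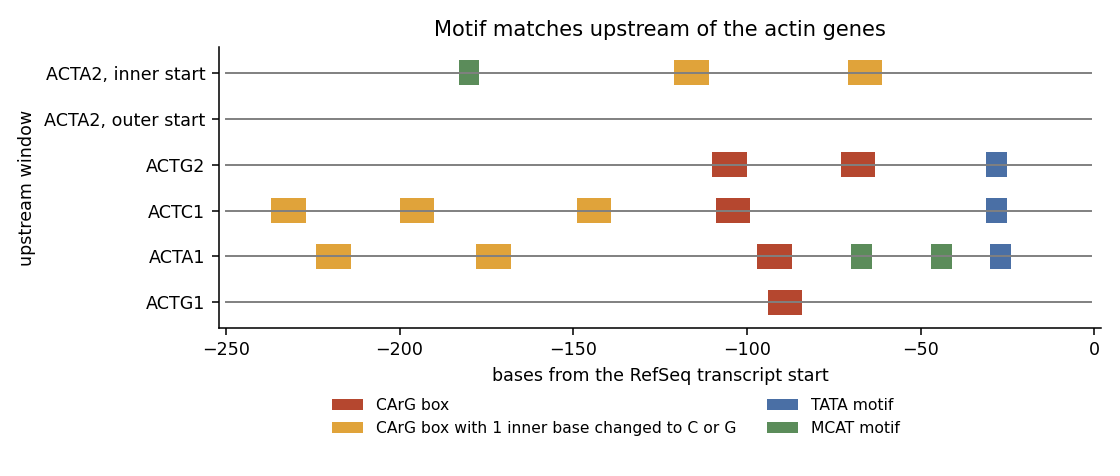
Motif matches in 6 upstream windows, drawn against distance in bases from the RefSeq transcript start. Coloured blocks are exact CArG boxes, CArG boxes with 1 inner base changed, TATA motifs and MCAT motifs; the exact boxes of ACTG2, ACTC1, ACTA1 and ACTG1 begin between 110 and 73 bases before the start.

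The map of motif matches shows that the nearest CArG form of ACTA2 (inner start), ACTG2, ACTC1, ACTA1 and ACTG1 begins between 109 and 71 bases before the start. ACTG1, a cytoplasmic isoform, also carries an exact box, and its mRNA followed ACTB rather than ACTA2 across the treatments, as described below.

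The libraries held 15563805 counts for luteolin + TGF-β1, 14609132 for TGF-β1 and 17876657 for control. Counts were scaled by the library total and its TMM factor to CPM, the count per 1000000, and a gene with 0 counts may still have had 3 (0.219, 0.201 and 0.151 CPM in the same order of libraries). All 12 fibroblast markers were above 1 CPM in every library, and their sum was 52927, 30702 and 20645 CPM in luteolin + TGF-β1, TGF-β1 and control, mostly COL1A1 and COL1A2. The median log2 ratio of that list was -0.22 in TGF-β1 over control and -0.08 in luteolin + TGF-β1 over control. In luteolin + TGF-β1 over TGF-β1 the median was 0.57. DCN had 10389, 2505 and 23286 counts. The leukocyte marker PTPRC and the endothelial marker PECAM1 had 0 counts in all 3 libraries, and the epithelial marker EPCAM had 2, 1 and 5. Endothelial markers summed to 3.36, 34.5 and 36.9 CPM, nearly all of it TEK. Epithelial markers summed to 62.2, 146 and 110 CPM, mostly KRT18. The 14 smooth muscle and pericyte markers include no actin gene but share 6 with the muscle-type filament partners below. They summed to 12791, 5377 and 2930 CPM, most of it TAGLN, which myofibroblasts also make. The list did not move as 1 group. By the calls defined below, 4 of the 14 were higher and 4 lower in luteolin + TGF-β1 over TGF-β1. Of all eligible genes, 12.5% were higher and 14.8% lower. With upper-quartile scaling 5 markers were higher and 3 lower, as were 2221 and 1605 of 13739 eligible genes. Over control, TGF-β1 had 3 of 13 eligible markers higher and 0 lower (median 0.50), where 3.7% and 6.67% of all eligible genes were. With total counts 2 were higher and 1 lower, as were 411 and 1116 of 13543 eligible genes. Luteolin + TGF-β1 over control had 5 of 13 higher and 2 lower (median 0.77), where 12.4% and 17.1% of all eligible genes were. The part of these markers in the actin values was not tested.

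The 6 actins together took 2.04% of all counts in luteolin + TGF-β1, 2.45% in TGF-β1 and 1.89% in control. Compared per length, as deposited TPM (a length-corrected share of the library), the order of the isoforms was ACTB, ACTG1, ACTA2, ACTG2, ACTC1 and ACTA1 under both treatments with TGF-β1. In control the order differed in 1 place, with ACTG2 above ACTA2. In luteolin + TGF-β1 the levels ran from 11578 TPM for ACTB to 1.34 TPM for ACTA1, in TGF-β1 from 15399 to 0.178 TPM, and in control from 11433 TPM for ACTB to 0 for ACTA1. ACTB and ACTG1 were thus the main actins of every library, and the muscle isoforms ran from abundant to nearly absent.

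**Figure D2:**
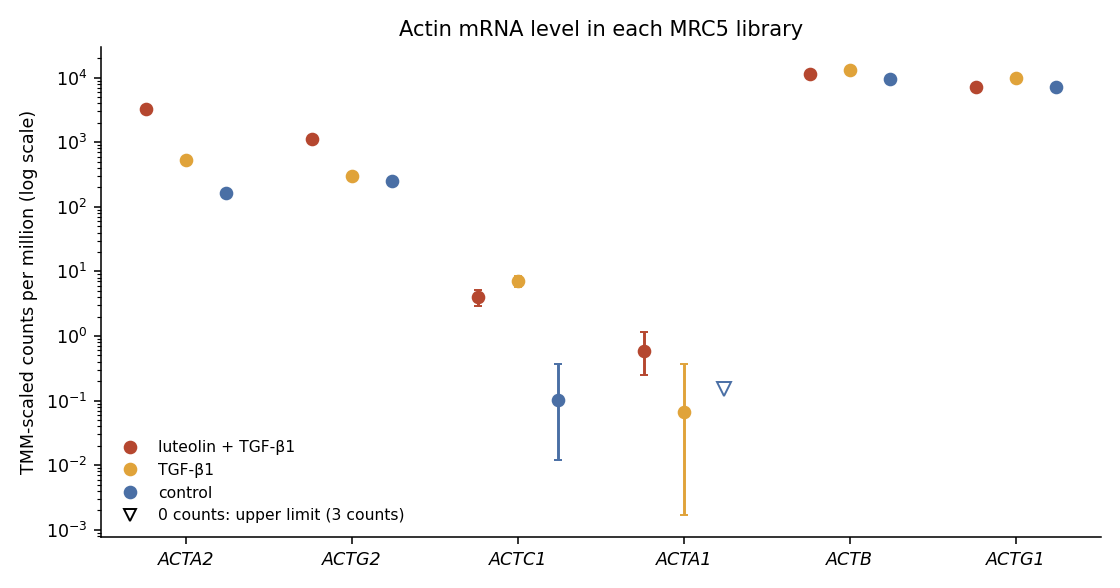
Level of each actin gene in each library, as TMM-scaled CPM on a log axis, with exact 95% counting intervals; an open triangle marks 0 counts, drawn at the limit of 3 counts. ACTA2 stands at 3302 CPM in luteolin + TGF-β1, 533 in TGF-β1 and 163 in control, while the 3 ACTB points lie between 9516 and 13229 CPM.

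ACTA2 (ENSG00000107796, chromosome 10, 88935074 to 88991337) had the widest range of any well-counted actin. Its counts were 45165 in luteolin + TGF-β1, 7965 in TGF-β1 and 3255 in control, or 3302, 533 and 163 CPM. Per length it reached 3808, 712 and 225 TPM, which placed it 32nd, 166th and 609th among all genes of those libraries. The 3 counting intervals lie far apart, and the order was luteolin + TGF-β1, then TGF-β1, then control. Against control, TGF-β1 gave a log2 ratio of 1.71 (1.65 to 1.77). Luteolin + TGF-β1 gave 2.63 (2.60 to 2.66) against TGF-β1 and 4.34 (4.28 to 4.39), or 20.2-fold, against control. In bulk RNA, more cells making ACTA2 and more ACTA2 mRNA per cell cannot be told apart.

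ACTG2 (ENSG00000163017, chromosome 2, 73893008 to 73919865) is the actin of visceral smooth muscle, such as that of gut and bladder. It had 15596 counts in luteolin + TGF-β1, 4462 in TGF-β1 and 4937 in control, or 1140, 299 and 248 CPM, and its TPM of 1027, 312 and 267 ranked 115th, 454th and 516th. Only the luteolin + TGF-β1 library stood well apart. The log2 ratio of TGF-β1 over control was 0.27 (0.21 to 0.33), short of the 2-fold needed for a call. Luteolin + TGF-β1 over TGF-β1 gave 1.93 (1.88 to 1.98), or 3.82-fold, and over control 2.20 (2.15 to 2.25), or 4.60-fold.

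The pair of smooth muscle actins did not keep a constant proportion. In TPM, ACTG2 stood at 0.270 of ACTA2 in luteolin + TGF-β1, 0.437 in TGF-β1 and 1.18 in control. The ratio of their counts does not depend on library scaling, and ACTA2 gained over ACTG2 by 2.71-fold in TGF-β1 over control (log2 1.44, 1.35 to 1.52) and by a further 1.62-fold in luteolin + TGF-β1 over TGF-β1 (log2 0.70, 0.64 to 0.76). Control MRC5 cells therefore held slightly more ACTG2 than ACTA2 mRNA per length, and both treated libraries held more ACTA2.

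ACTC1 (ENSG00000159251, chromosome 15, 34790230 to 34795549), the alpha-actin of heart muscle, was highest in TGF-β1 alone. It had 54 counts in luteolin + TGF-β1, 106 in TGF-β1 and 2 in control, or 3.95, 7.10 and 0.100 CPM. TGF-β1 over control was 70.7-fold on 2 control counts, a log2 ratio of 6.14 with an interval of 4.25 to 9.21, whose width leaves the size of the fold poorly fixed. Luteolin + TGF-β1 over TGF-β1 was -0.85 (-1.35 to -0.36) on the log2 scale, short of 2-fold, and luteolin + TGF-β1 over control was 5.30 (3.37 to 8.38).

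ACTC1 and ACTA2 therefore had opposite signs between the 2 libraries that received TGF-β1. Set against ACTC1 in the same library, ACTA2 was 11.1-fold higher in luteolin + TGF-β1 than in TGF-β1 (log2 3.48, 3.002 to 3.950), a value that library scaling cannot alter. Even at its highest ACTC1 was scarce, at 12.3 TPM in TGF-β1, against 5.92 TPM in luteolin + TGF-β1 and 0.180 TPM in control. Most markers of heart and skeletal muscle were at or near 0, though not all: MYH6, MYH7, TNNI3, NKX2-5, MYOD1 and MYOG had 0 counts in all 3 libraries, and TNNT2 had 0, 3 and 2. Of 26 striated muscle markers, 20, 15 and 19 were at 0 counts, and the sum of the list was 6.73, 6.36 and 4.07 CPM. The atrial light chain MYL7 had 35, 12 and 1 counts, the embryonic myosin MYH3 32, 13 and 22, and the slow troponin TNNT1 17, 29 and 11. In each comparison 4 striated markers were eligible. MYL7 and MYH3 were called higher and DES lower in luteolin + TGF-β1 over TGF-β1, where 12.5% and 14.8% of all eligible genes were. TNNT1 was called higher in TGF-β1 over control, where 3.7% of all eligible genes were. In luteolin + TGF-β1 over control, MYL7 and MYH3 were called higher and TNNC1 lower (3 counts against 27, log2 -2.63). Of all eligible genes, 12.4% were higher and 17.1% lower there. The part of the striated markers in the ACTC1 values was not tested.

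ACTA1 (ENSG00000143632, chromosome 1, 229431245 to 229434094), the actin of skeletal muscle, had 8 counts in luteolin + TGF-β1, 1 in TGF-β1 and 0 in control. It stayed under 1 CPM throughout and so was not eligible for a call. Luteolin + TGF-β1 over TGF-β1 gave a log2 ratio of 3.13 with an interval of 0.23 to 8.60. Set against the limit of 3 counts in control, its 8 counts gave a point ratio of 3.88-fold, which any lower control count would raise. Counting error reaches below that, with a log2 ratio of 1.31 as the lower end of the interval. No fold is given for TGF-β1 against control, where both libraries were at or under that limit.

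ACTB (ENSG00000075624, chromosome 7, 5527148 to 5530601) was among the most abundant mRNAs of the cells, 9th, 5th and 7th by TPM in luteolin + TGF-β1, TGF-β1 and control. Its counts were 157480, 197512 and 189402, or 11514, 13229 and 9516 CPM. TGF-β1 over control was 0.48 (0.47 to 0.48) and luteolin + TGF-β1 over TGF-β1 was -0.20 (-0.21 to -0.19) on the log2 scale, both outside counting error and both under 2-fold. Luteolin + TGF-β1 over control was 0.28 (0.27 to 0.28), and -0.07 when libraries were scaled by total counts alone. TGF-β1 held the highest ACTB level of the 3 libraries under each scaling tried.

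ACTG1 (ENSG00000184009, chromosome 17, 81509971 to 81512799) had 98978 counts in luteolin + TGF-β1, 148053 in TGF-β1 and 140038 in control, or 7237, 9916 and 7035 CPM, and ranked 12th, 6th and 10th by TPM. TGF-β1 over control was 0.50 (0.48 to 0.51), close to the ACTB ratio. Luteolin + TGF-β1 over TGF-β1 was -0.45 (-0.47 to -0.44), and over control 0.04 (0.03 to 0.05), which became -0.30 with total counts alone. ACTG1 stood at 0.735 of ACTB by TPM in luteolin + TGF-β1, 0.876 in TGF-β1 and 0.864 in control. The scaling-free change of ACTG1 against ACTB was 0.02 (0.01 to 0.03) for TGF-β1 over control and -0.25 (-0.27 to -0.24) for luteolin + TGF-β1 over TGF-β1. The proportion within the cytoplasmic pair was thus almost equal in TGF-β1 and control, and ACTG1 stood lower against ACTB in luteolin + TGF-β1.

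**Figure D3:**
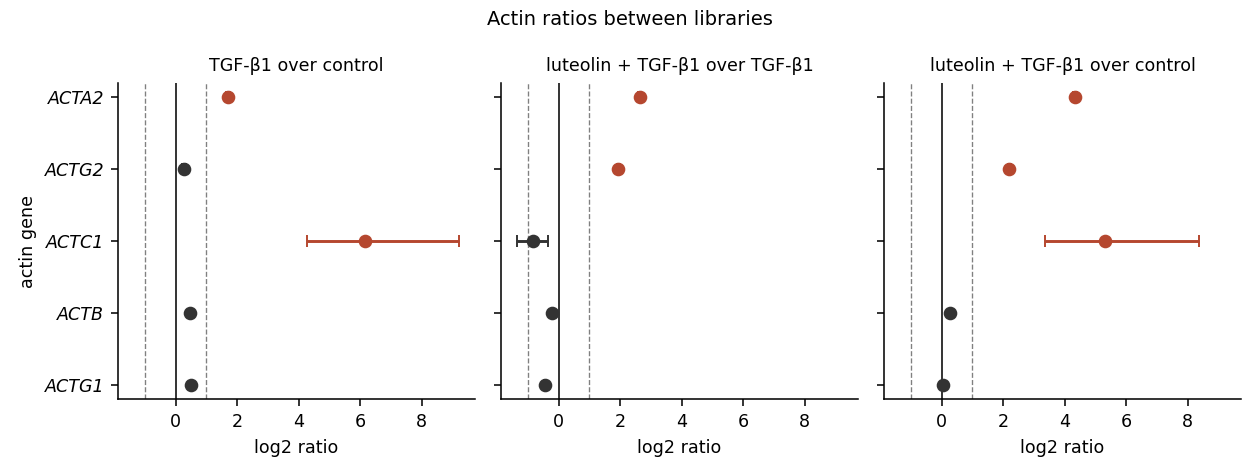
Log2 ratios of 5 actin genes in the 3 comparisons, with exact 95% counting intervals; dashed lines mark 2-fold and red points are called. ACTA2 lies at 1.71, 2.63 and 4.34, ACTC1 at 6.14, -0.85 and 5.30, and ACTB and ACTG1 lie within 0.50 of 0 in each panel.

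A gene was called when its ratio was at least 2-fold and its interval excluded equality, among genes at 1 CPM or more in either library, which 5 of the 6 actins met in each comparison. In TGF-β1 over control, 2 of 5 were called higher (ACTA2 and ACTC1) and 0 lower, where 3.7% of the 13416 eligible genes were called higher and 6.67% lower. In luteolin + TGF-β1 over TGF-β1, 2 of 5 were called higher (ACTA2 and ACTG2) and 0 lower, where 12.5% of 13703 genes were higher and 14.8% lower. Over control, luteolin + TGF-β1 had 3 of 5 called higher (ACTA2, ACTG2 and ACTC1) and 0 lower, where 12.4% of 13859 genes were higher and 17.1% lower. Any pair of these comparisons has 1 library in common. The called genes were all muscle isoforms, and neither cytoplasmic actin was called in any comparison. In the authors' deposited table, the log2 fold changes of ACTA2, ACTG2 and ACTC1 are 1.72, 0.28 and 6.06 for TGF-β1 over control and 2.66, 1.97 and -0.81 for luteolin + TGF-β1 over TGF-β1. The plot of log2 ratios sets the isoforms side by side.

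The isoform mix differed most between luteolin + TGF-β1 and the other libraries. By TPM, the 4 muscle isoforms made up 19.4% of all actin mRNA in luteolin + TGF-β1, 3.46% in TGF-β1 and 2.26% in control. ACTA2 alone accounted for 15.3%, 2.38% and 1.03%, and ACTG2 for 4.12%, 1.04% and 1.22%. ACTB made up 46.4%, 51.5% and 52.4%, and ACTG1 34.1%, 45.1% and 45.3%. Per molecule of ACTA2 mRNA there were 3.04 of ACTB in luteolin + TGF-β1, 21.6 in TGF-β1 and 50.7 in control, taking TPM as proportional to molecules.

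**Figure D4:**
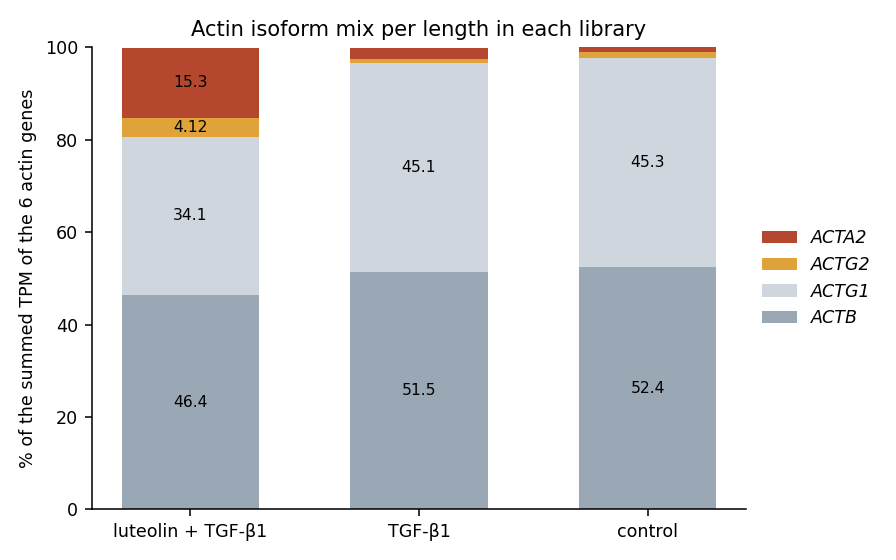
Share of each actin isoform in the summed TPM of the 6 genes, stacked to 100% for each library; ACTC1 and ACTA1 are too small to draw. ACTA2 and ACTG2 fill 15.3% and 4.12% of the luteolin + TGF-β1 bar, against 2.38% and 1.04% in TGF-β1 and 1.03% and 1.22% in control.

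The stacked shares of the isoforms can be read against the sums. The 6 actins summed to 24926 TPM in luteolin + TGF-β1, 29928 in TGF-β1 and 21806 in control. Muscle isoforms gave 4842, 1036 and 492 TPM of this, and cytoplasmic isoforms 20084, 28892 and 21314. From summed counts, the muscle isoforms had a log2 ratio of 2.41 (2.38 to 2.43) in luteolin + TGF-β1 over TGF-β1 and of 1.03 (0.99 to 1.07) in TGF-β1 over control. The cytoplasmic isoforms gave -0.30 and 0.48 for the same comparisons. All 6 together gave -0.05 in luteolin + TGF-β1 over TGF-β1, a sign that turned to 0.12 with upper-quartile scaling, and 0.50 in TGF-β1 over control.

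ACTB is widely used as the reference gene when ACTA2 is measured by PCR or blot, so its ratios were placed among 11 other common reference genes. In TGF-β1 over control, ACTB and ACTG1 had the 11th and 12th smallest shift of the 13 genes. GAPDH shifted least, at a log2 ratio of 0.003, and B2M most, at -0.75. Divided by ACTB, the ACTA2 ratio of TGF-β1 over control was 2.35-fold and divided by ACTG1 it was 2.31-fold, both lower than with any of the 11, which ran from 2.78-fold with TBP to 5.47-fold with B2M (median 3.29). In luteolin + TGF-β1 over TGF-β1, ACTB ranked 7th and ACTG1 10th of the 13, and HPRT1 (-1.31) and PGK1 (1.05) shifted most. There the ACTA2 ratio was 7.11-fold over ACTB and 8.48-fold over ACTG1, within the range of 2.98-fold with PGK1 to 15.3-fold with HPRT1 (median 6.56).

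**Figure D5:**
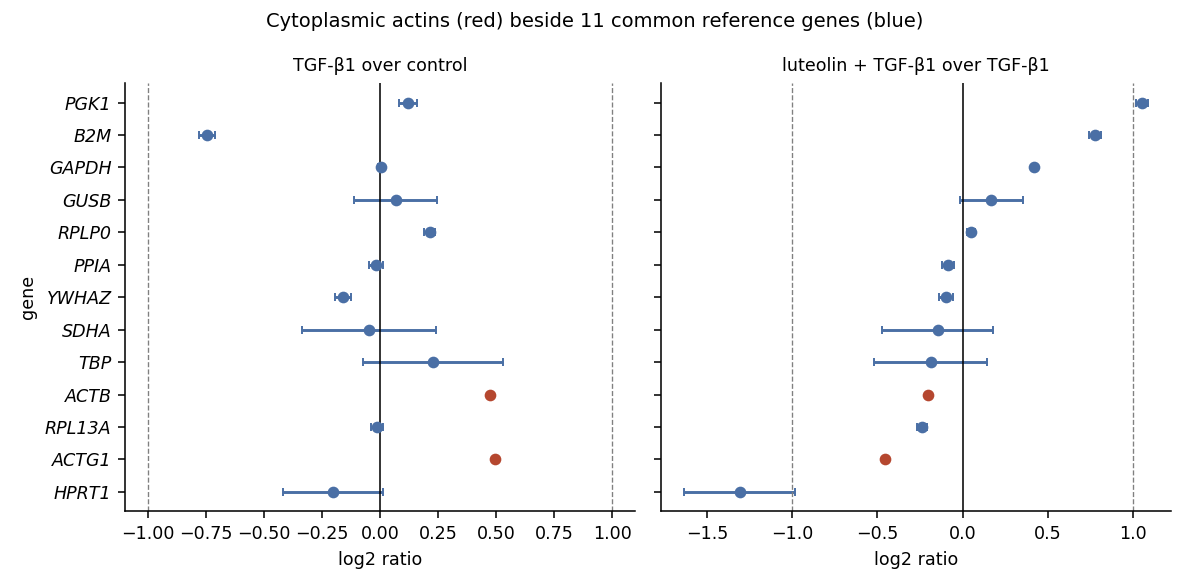
Log2 ratios of ACTB and ACTG1 (red) and 11 reference genes (blue), with TGF-β1 over control on the left and luteolin + TGF-β1 over TGF-β1 on the right, with exact 95% counting intervals. On the left ACTB (0.48) and ACTG1 (0.50) lie above the points of all 11 reference genes, with the TBP interval reaching 0.53, and on the right they lie at -0.20 and -0.45, between HPRT1 at -1.31 and PGK1 at 1.05.

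In the plot of reference genes, the actin pair lies on opposite sides of 0 in the 2 panels. ACTA2 exceeded 2-fold with each of these 13 denominators in both comparisons. ACTG2 did not: in TGF-β1 over control it ran from 1.03-fold with TBP to 2.02-fold with B2M among the 11, and it was below 1 with the actins, at 0.867-fold with ACTB and 0.855-fold with ACTG1. ACTC1 in luteolin + TGF-β1 over TGF-β1 was lower with 10 of the 11 and higher with HPRT1. These within-library ratios do not use the TMM factors.

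Actin must be folded by prefoldin and the CCT chaperonin, and its N-terminus is then trimmed and acetylated. Of 18 such genes, 0 were called in TGF-β1 over control, where 3.7% of all eligible genes were higher and 6.67% lower. The median log2 ratio was 0.11, or -0.01 with total counts, against -0.01 for all eligible genes. Between luteolin + TGF-β1 and TGF-β1, 5 were called lower and 0 higher in luteolin + TGF-β1, where 14.8% of all eligible genes were lower, with a median of -0.76 against -0.04. The CCT subunits CCT5 (-1.79), CCT2 (-1.27) and CCT7 (-1.12) and the prefoldin subunit PFDN4 (-1.24) were lower. CCT5 had 1323 counts in luteolin + TGF-β1 and 5002 in TGF-β1. ACTA2 and ACTG2 were thus highest in the library with the lowest levels of these folding subunits. Over control, 4 were lower and 1 higher (median -0.71, against -0.08 for all eligible genes), where 17.1% of all eligible genes were lower and 12.4% higher. Scaling moved these counts and those of all genes. In luteolin + TGF-β1 over TGF-β1, 3 were lower with upper quartiles, where CCT7 (-0.94) and PFDN2 (-0.86) lost their calls. With that scaling 1605 of 13739 eligible genes were lower. With total counts 8 were lower, as were 2665 of 13537 eligible genes. Over control, total counts gave 10 lower and 0 higher, and 3528 lower and 1077 higher among 13811 eligible genes.

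Of 21 monomer-binding, capping and turnover factors, 0 were called in TGF-β1 over control (median 0.13), where 3.7% of all eligible genes were higher and 6.67% lower. In luteolin + TGF-β1 over TGF-β1, 1 of the 21 was called higher and 1 lower, where 12.5% and 14.8% of all eligible genes were. The median there was 0.08, and below 0 with total counts. The severing factor DSTN was higher at 1.14, with 7482 counts against 3697. The capping protein CAPG was lower at -1.62, with 293 counts against 983. DSTN dropped under 2-fold with total counts, at 0.93.

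Genes that start and extend filaments include the formins and the branched-filament nucleating complex. Of 21 eligible, 1 was called higher and 1 lower in TGF-β1 over control, where 3.7% and 6.67% of all eligible genes were. They were the formins FMNL3 (1.05) and FMN2 (-1.02). Both calls lie close to the threshold, since FMNL3 was lost with total counts and FMN2 with DESeq2 size factors. When luteolin + TGF-β1 was set against TGF-β1, 6 were called lower and 0 higher (median -0.18), where 14.8% of all eligible genes were lower. The formin DIAPH3 had 73 counts in luteolin + TGF-β1 and 838 in TGF-β1, a log2 ratio of -3.39, and the formins FHOD3 (-3.04) and FHOD1 (-1.97) were also lower. ARPC1B, a subunit of the branched-filament nucleating complex, had 4 counts against 40, a ratio of -3.20.

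Most of the 14 genes listed as muscle-type filament partners were called in luteolin + TGF-β1 over TGF-β1. The list is a loose one, since it includes ACTN1, VCL and DES, which are not all muscle-specific or actin-binding. In TGF-β1 over control, 4 of 13 eligible were called higher and 2 lower (median 0.59), where 3.7% and 6.67% of all eligible genes were: tropomyosin TPM1 (1.69) and calponin CNN1 (1.47) were higher, and SYNPO2 (-1.59) and the myosin light chain kinase MYLK (-1.21) were lower. With total counts 2 were higher, since CALD1 (0.88) and TAGLN (0.93) lost their calls, and 411 of 13543 eligible genes were higher. Luteolin + TGF-β1 over TGF-β1 had 9 of 14 called higher and 1 lower (median 1.24), where 12.5% and 14.8% of all eligible genes were. With total counts 7 of the 14 were higher, as were 1187 of 13537 eligible genes. Smooth muscle myosin MYH11 had 115 counts in luteolin + TGF-β1 and 6 in TGF-β1, a ratio of 4.39. MYLK reached 2.85 and the thin-filament nucleator LMOD1 2.84, while desmin DES had 4 counts against 20, a ratio of -2.20. Over control, luteolin + TGF-β1 had 10 of 13 called higher and 0 lower. Of all eligible genes, 12.4% were higher and 17.1% lower. The median was 1.90, against -0.08 for all eligible genes. With total counts 9 of 13 were higher, as were 1077 of 13811 eligible genes. MYLK was therefore below control in TGF-β1 and above it in luteolin + TGF-β1, at 1.63 on the log2 scale over control, unlike ACTA2, which was above control in both.

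Of the 12 genes listed as non-muscle filament partners, 0 were called in TGF-β1 over control (median 0.19), where 3.7% of all eligible genes were higher and 6.67% lower. In luteolin + TGF-β1 over TGF-β1, 4 were called higher (median 0.41), where 12.5% of all eligible genes were. These were the cross-linkers ACTN4 (1.23) and FLNA (1.11), the myosin heavy chain MYH9 (1.09) and the light chain MYL12A (1.01). With total counts FLNA, MYH9 and MYL12A dropped to 0.90, 0.87 and 0.79 and lost the call.

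SRF and the factors that act with it were measured as 12 genes. In TGF-β1 over control, 1 of 12 was called higher and 1 lower (median 0.33), where 3.7% of all eligible genes were higher and 6.67% lower. Luteolin + TGF-β1 over TGF-β1 had 0 higher and 2 lower (median 0.01), where 12.5% and 14.8% of all eligible genes were. MYOCD, encoding the SRF coactivator myocardin of smooth and cardiac muscle, had 517 counts in luteolin + TGF-β1, 1184 in TGF-β1 and 576 in control. It was called higher in TGF-β1 over control (1.45) and lower in luteolin + TGF-β1 over TGF-β1 (-1.07, or -0.90 and not called with upper-quartile scaling), an order across the libraries that resembles ACTC1 more than ACTA2. FHL1 was lower in TGF-β1 over control, at -1.29, and MEF2C, with 5 counts against 65, was lower in luteolin + TGF-β1 over TGF-β1, at -3.57. SRF and MRTFA, the actin-sensing coactivator, were singled out with their values in view. SRF had ratios of 0.55 and 0.43 in the same comparisons, and MRTFA 0.93 and 0.15, none of them called. Over control, luteolin + TGF-β1 had 3 of the 12 genes called higher, FHL2 (1.42), MEF2D (1.27) and MRTFA (1.08), and 1 lower, MEF2C (-3.35). Of all eligible genes, 12.4% were higher and 17.1% lower in that comparison. With total counts 1 of the 12 was higher, as were 1077 of 13811 eligible genes. SRF was at 0.97 in luteolin + TGF-β1 over control, and was called at 1.15 with upper-quartile scaling.

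Actin-related proteins and further actins serve in several settings, among them chromatin complexes and specialised cells. Of 17 genes, 8 were eligible, and 0 were called in TGF-β1 over control (median -0.03), where 3.7% of all eligible genes were higher and 6.67% lower. Set against TGF-β1, luteolin + TGF-β1 had 3 called lower and 0 higher (median -0.17, and just above 0 with upper-quartile scaling): ACTRT3 (-1.22), and the chromatin-remodelling subunits ACTL6A (-1.12) and ACTR5 (-1.07), where 14.8% of all eligible genes were lower. All 3 calls were lost with upper-quartile scaling. Members of the 6-gene family were not part of any of these lists.

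The genes whose pair of ratios lay nearest to that of each actin were found among 9687 genes with at least 10 counts in every library and 10 CPM in 1 or more, by Euclidean distance over 2 log2 ratios, that of TGF-β1 over control and that of luteolin + TGF-β1 over TGF-β1. The pattern of ACTA2 was rare: 3 genes lay within 0.5, namely LINC02593 at 0.064, TSPAN2 at 0.18 and INHBA at 0.42. INHBA, which encodes an activin subunit, had 25415 counts in luteolin + TGF-β1, 5671 in TGF-β1 and 2748 in control. The pattern of ACTG2 had 61 genes within 0.5, with FAM162A, NR4A1 and NRXN3 nearest. For ACTC1, whose own 2 control counts are under the minimum of 10 set for these genes, the nearest was DACT1 at 1.78, and genes nearly absent from control could not be found. ACTB had 2095 such genes (nearest ATXN7L3, DBN1 and PRPF6) and ACTG1 1832 (nearest MRPS2, LRP3 and VPS37B). Each pattern rests on the same 3 libraries, so these distances are a description.

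Actin genes share long stretches of sequence with one another and with many processed pseudogenes, and the treatment of reads that fit several places is not stated in the submitters' notes. The 12 ACTB pseudogene IDs held 199 counts in luteolin + TGF-β1, 283 in TGF-β1 and 195 in control, which was 0.126%, 0.143% and 0.103% of the sum with ACTB. The 21 ACTG1 pseudogene IDs held 25, 15 and 24 counts. ACTBP2 (129, 177 and 130), ACTBP11 (68, 106 and 65) and ACTG1P25 (1, 4 and 9) held the most. Any read shared between isoforms leaves the split between ACTA2, ACTG2, ACTC1 and ACTA1 uncertain, most of all for ACTC1 and ACTA1 with their few counts.

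ACTA2 also overlaps other genes in the annotation. FAS, the death receptor gene that overlaps the outer part of ACTA2, had 1183 counts in luteolin + TGF-β1, 351 in TGF-β1 and 838 in control, an order that differs from that of ACTA2. The antisense gene ACTA2-AS1 had 4, 3 and 28 counts. The strand setting of the counting is not given, so reads of overlapping genes cannot be told apart. The counts given to FAS and ACTA2-AS1 do not bound how many such reads ACTA2 received. The part of overlapping reads in the ACTA2 values was not tested. ACTC1 lies within the non-coding gene GJD2-DT, which had 2, 1 and 0 counts.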

How the data were processed

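The mRNA table deposited by the authors gives whole-number counts per Ensembl gene, taken unchanged. Its TPM columns, also deposited by the authors, were used for levels between genes and shares of actin. The authors' deposited log2 fold changes each set 1 library against 1 other. The deposited p-values were not used. Libraries were made with a stranded poly(A) mRNA kit, per the labels' protocols. The submitters' processing notes name fastp 0.20.0, HISAT2 2.1.0, featureCounts 2.0.1, edgeR 3.36.0 and hg38, with no role or order. The sources used here do not give the annotation release, the strand setting or the handling of multiply mapped reads.

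Groups came from sample titles and columns from library names. Scaled counts are per effective library size, with TMM factors from edgeR 4.0.16 (0.879, 1.02 and 1.11 for luteolin + TGF-β1, TGF-β1 and control). Ratio intervals are exact 95% Clopper-Pearson, conditional on both counts, and describe counting error alone, as reads lacking molecular identifiers need not be separate molecules; intervals of ratios between genes use the large-count normal form. A single library per group leaves no residual degrees of freedom, so edgeR's quasi-likelihood test could not be run and no p-value is given. Alternatives were total counts, upper-quartile and DESeq2 1.42.0 size factors, TMM factors from genes at 10 CPM, a minimum of 10 CPM or none for the calls, and pseudogene counts added. The ratio calculation was tested on simulated data. Per list, up to 4 called genes with the largest ratios were named, with the 3 nearest patterns per actin. Other genes, such as SRF, DCN, MYL7 and those whose calls turned with scaling, were picked with their values known. Members and lists were chosen with earlier results of these data known. Gene positions and promoters are RefSeq, GRCh38.p14, and all 6 symbols matched an ID. The miRNA table was not used here, and 1 gene of the reference list is not reported here.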

Additional observations from a re-analysis of the deposited data

How the results depend on the processing

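With 1 library per group, no replicate could be left out. No paired analysis was possible because each group has 1 library. Total-count scaling moved the median log2 ratio of all eligible genes to -0.14 in TGF-β1 over control, -0.27 in luteolin + TGF-β1 over TGF-β1 and -0.43 in luteolin + TGF-β1 over control, and upper-quartile scaling to -0.01, 0.15 and 0.11. The share of calls that were higher in luteolin + TGF-β1 over TGF-β1 was 45.7%, against 30.8% with total counts 58.1% with upper quartiles and 50.2% with TMM on genes at 10 CPM; over control it was 42.1%, against 23.4% and 52.8%. Over the 5 alternatives ACTA2 ranged from 1.58 to 1.73 in TGF-β1 over control and from 2.41 to 2.80 in luteolin + TGF-β1 over TGF-β1, and ACTG2 in that second comparison from 1.71 to 2.10. ACTB there ranged from -0.42 to -0.03 and ACTG1 from -0.67 to -0.28. The sign of luteolin + TGF-β1 over control turned with total counts for ACTB (-0.07) and ACTG1 (-0.30), both still above the median of all genes under that scaling. ACTC1 in luteolin + TGF-β1 over TGF-β1 passed 2-fold with total counts (-1.06), which makes 1 actin called lower where there had been 0.

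A minimum of 10 CPM left 248 genes higher and 380 lower in TGF-β1 over control, 756 and 1185 in luteolin + TGF-β1 over TGF-β1, and 856 and 1319 in luteolin + TGF-β1 over control, where total counts gave 1077 higher. The genes on all 14 lists, marker lists included, were also counted together. In TGF-β1 over control, total counts called 5 of them higher and 12 lower (10 and 7 with TMM). Of all eligible genes, 411 were higher and 1116 lower (497 and 895 with TMM). In luteolin + TGF-β1 over TGF-β1, 13 list genes were higher (22 with TMM), and 1187 of all eligible genes (1707 with TMM). In luteolin + TGF-β1 over control, 36 list genes were lower (20 with TMM), and 3528 of all eligible genes (2368 with TMM). Calls over all genes thus moved the same way. From raw counts in place of TPM, the muscle share of actin was 19.2% in luteolin + TGF-β1 and 2.43% in control, and 19.2% and 2.43% with pseudogenes added. Taken against the median of 11 reference genes in place of ACTB, the log2 ratio of ACTA2 was 1.72 in TGF-β1 over control (1.23 with ACTB), 2.71 in luteolin + TGF-β1 over TGF-β1 (2.83) and 4.30 in luteolin + TGF-β1 over control (4.06). The cause of these shifts was not tested, and a minimum of 10 CPM also left fewer genes eligible. Depth limits ACTC1 and ACTA1, with at most 106 and 8 counts.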
